A study of Mus musculus with 454 samples.

Results

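The genes described here encode subunits of the GABA-A receptor. They are Gabra2, Gabra3, Gabra4 and Gabra5 (alpha subunits), Gabrb1 and Gabrb2 (beta subunits), Gabrg1 (a gamma subunit) and Gabrd (the delta subunit), 8 named genes of the 43346 in the deposited count table. All 8 were measured in every region and passed the filter on low counts in every fit. The study asked how social isolation in adolescence and cocaine act on the brain transcriptome of female and male mice. RNA-seq was run on dissected tissue from AMY, the amygdala (115 libraries), Nac, the nucleus accumbens (112), PFC, the prefrontal cortex (112), and VTA, the ventral tegmental area (115). In each region, females and males had been group housed or isolated and had received saline or cocaine (7.5 mg/kg), acutely or chronically, which made 16 groups of 5 to 8 libraries in each region and 64 groups in all. The labels name no strain, transgene or age. They also leave unsaid whether each library is a separate animal, so a p-value here speaks only of the spread among these libraries, part of which can be technical.

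GABA-A receptors are chloride channels opened by GABA, the main inhibitory transmitter of the adult brain. Each channel is a ring of subunits, usually alpha and beta subunits with a gamma or a delta subunit. Receptors with a gamma subunit gather mostly at synapses, while receptors with Gabrd lie outside synapses and carry tonic inhibition, often with Gabra4 as the partner in forebrain. The alpha subunit sets much of the sensitivity to benzodiazepines, and Gabra2 has long been studied in genetics of alcohol and drug use.

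Library totals ran from 11.21 to 52.34 M counts, with a median of 21.71 M. Levels are CPM (counts per mega-count of the library, with TMM factors over all libraries). The labels' tissues were checked against marker lists. The summed CPM of 10 medium spiny neuron markers had a median of 5395 in Nac and of 298 to 519 elsewhere. For 8 dopamine neuron markers the median was 3814 in VTA and 37.6 to 48.4 elsewhere. Cortical markers were highest in PFC (median 6657), and a list for medial amygdala and hypothalamus was highest in AMY (median 121, against 23.7 to 63.0 elsewhere). A total of 26 libraries stood apart from their region by principal components, by markers of another tissue or by transcripts of the opposite sex (AMY 5, Nac 5, PFC 9 and VTA 7), and results that rest on them are given with and without them. The sample titles carry numbers in 4 series (from 500, 1000, 1100 and 1200), whose meaning the labels do not give. Acute groups have numbers from series 1000 and 1100, chronic saline from 500 and 1200, and chronic cocaine from 1000 and 1200. Chronic and acute saline therefore cannot be told apart from the number series, and chronic cocaine can be compared with saline within series 1200 only.

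Gabrg1, Gabra2, Gabra4 and Gabrb1 lie in 1 cluster on chromosome 5 of the GRCm38 genome, in the order Gabrg1 (70751047 to 70842617, minus strand), Gabra2 (70957597 to 71095849, minus strand), Gabra4 (71569749 to 71658308, minus strand) and Gabrb1 (71658113 to 72149037, plus strand). Gabra4 and Gabrb1 start head to head, and their annotated spans overlap by 196 bases, of which 46 are exonic in both. The strand setting of the authors' counting is not given in the sources used here, so reads in that short overlap are uncertain. Gabra5 lies on chromosome 7 (57407672 to 57510059, minus strand). Gabrb2 is on chromosome 11 (42419757 to 42629028, plus strand), Gabra3 on the X chromosome (72432681 to 72656848, minus strand) and Gabrd on chromosome 4 (155384980 to 155398112, minus strand).

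A promoter sequence was matched by symbol for 7 of the 8 genes (RefSeq, GRCm38.p6). The stretches before the start sites of Gabra4, Gabra3 and Gabrg1 are shown, since the transcripts of the first pair went up and down together in AMY and PFC and in opposite directions in Nac, and Gabrg1 shares the chromosome 5 cluster with Gabra4 but not its regional pattern. They read on the minus strand from chr5:71658364-71658558 for Gabra4 (195 bases; the part of the window inside an annotated Gabrb1 exon was left out), chrX:72656920-72657169 for Gabra3 (250 bases) and chr5:70842618-70842867 for Gabrg1 (250 bases).
Gabra4: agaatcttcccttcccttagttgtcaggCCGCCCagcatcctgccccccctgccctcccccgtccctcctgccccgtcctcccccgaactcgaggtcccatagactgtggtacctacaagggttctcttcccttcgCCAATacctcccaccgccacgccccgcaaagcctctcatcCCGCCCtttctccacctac
Gabra3: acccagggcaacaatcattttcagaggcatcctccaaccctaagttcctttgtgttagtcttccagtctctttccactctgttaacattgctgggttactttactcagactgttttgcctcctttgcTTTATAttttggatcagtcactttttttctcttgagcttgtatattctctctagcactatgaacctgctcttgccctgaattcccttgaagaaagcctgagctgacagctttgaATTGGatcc
Gabrg1: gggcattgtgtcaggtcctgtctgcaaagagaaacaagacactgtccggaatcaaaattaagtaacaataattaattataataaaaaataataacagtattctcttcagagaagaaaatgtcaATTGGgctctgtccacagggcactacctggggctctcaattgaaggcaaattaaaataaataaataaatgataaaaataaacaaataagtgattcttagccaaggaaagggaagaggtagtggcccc
Capitals mark matches to the GC box with letters GGGCGG, the TATA box with letters TATAAA and the CCAAT box, and a match on the opposite strand shows as the reverse complement. On either strand these stand in 32.74%, 12.37% and 33.85% of all 32851 promoters of the table, so each match is common. The GC content was 63.6% for Gabra4, 42.4% for Gabra3 and 35.6% for Gabrg1, beside a median of 52.4% over all promoters. Neither the cAMP response element TGACGTCA (1.55% of promoters), its core TGACG (17.77%) nor the Egr site GCGTGGGCG (0.54%) had a match in the 7 promoters found. A match here is a description of letters and was not tested for binding.

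The delta subunit differed most between regions. Gabrd ranged from 51.0 CPM through a median of 119 to 229 CPM in Nac, from 31.9 through 45.3 to 70.7 CPM in PFC, from 7.30 through 12.1 to 25.8 CPM in AMY, and from 0.320 through 0.824 to 15.4 CPM in VTA. No library of Nac or PFC overlapped any library of AMY or VTA, and the means of Nac and VTA stood 95.3-fold apart. The VTA and AMY ranges met through 2 VTA libraries, at 15.4 and 14.4 CPM, both among those that stand apart. In tissue RNA of this kind, fewer cells of a type and less RNA per cell cannot be told apart.

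Gabra4, the frequent partner of the delta subunit, followed the same order in Nac, PFC, AMY and VTA with smaller differences. Its range was 81.1 CPM through a median of 180 to 267 CPM in Nac, 82.8 through 111 to 150 CPM in PFC, 58.9 through 85.6 to 110 CPM in AMY and 15.8 through 39.4 to 62.9 CPM in VTA. The ranges of Nac and PFC lay wholly above that of VTA, while AMY and PFC overlapped in 52 PFC and 74 AMY libraries.

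Gabra3 had a different order, with PFC and AMY high and Nac lowest. It ranged from 128 CPM through 206 to 260 CPM in PFC, from 148 through 185 to 264 CPM in AMY, from 97.8 through 127 to 143 CPM in VTA and from 39.4 through 79.7 to 131 CPM in Nac. The AMY range lay wholly above those of VTA and Nac. PFC and AMY overlapped in all of their libraries.

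Gabra2 was alike in Nac (24.4 CPM through a median of 55.4 to 74.8 CPM) and AMY (35.0 through 49.4 to 93.8 CPM), lower in PFC (25.1 through 38.9 to 50.4 CPM) and lowest in VTA (5.73 through 14.3 to 30.6 CPM). Gabra5, whose receptors are known from hippocampus and deep cortex and lie largely outside synapses, was highest in PFC (49.3 CPM through 72.8 to 89.1 CPM), followed by AMY (37.3 through 56.3 to 81.3 CPM), Nac (27.7 through 47.2 to 61.8 CPM) and VTA (14.2 through 22.7 to 35.2 CPM). For both genes VTA was the lowest region, and the AMY range lay wholly above it.

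The means of the beta subunits lay close together between regions. Mean Gabrb1 was 48.5 CPM in AMY, 45.1 in PFC, 42.8 in Nac and 32.8 in VTA, and all 4 ranges overlapped. Gabrb2 was the one gene of the 8 with its highest mean in VTA, at 176 ± 46.8 CPM (SD, n = 115), against 148 ± 35.7 in PFC (n = 112), 122 ± 33.0 in Nac (n = 112) and 119 ± 27.6 in AMY (n = 115). Single libraries of Gabrb2 went down to 1.89 CPM in Nac and 11.0 CPM in VTA and up to 337 CPM in VTA, so its ranges overlapped between all regions. Gabrg1, a gamma subunit found in amygdala and other limbic tissue and in glia, was highest in AMY. It ran there from 60.5 CPM through 87.8 to 123 CPM, against 31.9 through 63.5 to 120 CPM in Nac, 27.2 through 46.7 to 65.4 CPM in VTA and 18.7 through 26.1 to 49.3 CPM in PFC. The AMY range lay wholly above that of PFC and overlapped that of Nac broadly.

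In the fit over all libraries by edgeR's quasi-likelihood test, 7 or 8 of the 8 genes passed an adjusted p of 0.05 in each pair of regions. That share is near the background: 84.4% of 18627 genes tested passed between AMY and Nac, 81.4% between AMY and PFC, 87.2% between AMY and VTA, 86.1% between Nac and PFC, 90.5% between Nac and VTA and 89.3% between PFC and VTA. The median log2 difference of the 8 was 0.08 for AMY minus Nac, -0.23 for AMY minus PFC, 1.03 for AMY minus VTA, 0.21 for Nac minus PFC, 0.75 for Nac minus VTA and 1.05 for PFC minus VTA. Over all genes tested the same medians were -0.04, 0.01, 0.02, 0.07, 0.02 and -0.01. The sizes therefore say more than the calls.

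For Gabrd the fitted log2 difference was 6.66 (SE 0.09) for Nac minus VTA, 5.28 for PFC minus VTA, 3.45 for AMY minus VTA, 1.38 for Nac minus PFC, -1.83 for AMY minus PFC and -3.21 for AMY minus Nac. For Gabra4 the differences ran the same way, at 2.22, 1.52, 1.14, 0.70, -0.38 and -1.08. Gabra3 was lower in Nac than in PFC (-1.33), in VTA (-0.63) and, reading AMY minus Nac, lower than in AMY (1.20). Gabrg1 was higher in AMY than in PFC by 1.71, in VTA by 0.91 and in Nac by 0.42. Gabra2 was lower in VTA than in Nac, AMY and PFC by 1.89, 1.78 and 1.39, and Gabra5 by 1.02, 1.29 and 1.65. All of these passed the threshold.

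Neighbouring regions did not pass for the beta subunits in 2 cases. Gabrb2 gave -0.03 for AMY minus Nac (adjusted p 0.596), a difference that took the other sign under some alternatives. Gabrb1 gave -0.07 for Nac minus PFC (adjusted p 0.0737), and -0.17 with a call when the libraries that stand apart were left out. Without those libraries Gabrb1 no longer passed for AMY minus PFC, at 0.05 (adjusted p 0.204).

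Of 41 other genes of GABA signalling chosen as a list, 40 were measured in this fit and 36 to 40 passed in each pair of regions, again near the background. On the log2 scale Gad2, which makes GABA, was lower in PFC than in AMY (1.53 for AMY minus PFC) and Nac (2.16 for Nac minus PFC). Shisa7, a protein that binds GABA-A receptors, was lower in VTA than in AMY (1.81), Nac (2.34) and PFC (1.84).

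Per length of annotated exon the alpha subunits can be set beside each other. In CPM per kilobase, Gabra3 was the most abundant of the 4 alpha subunits described in AMY (mean 47.9 ± 4.83), PFC (52.7 ± 5.40) and VTA (32.2 ± 2.31), and Gabra4 in Nac (29.8 ± 6.22). As a mean share of the summed CPM per kilobase of these 4, Gabra3 made up 54.8% in AMY, 52.5% in PFC, 66.7% in VTA and 28.6% in Nac. Gabra4 made up 40.3% in Nac and between 13.3% and 18.3% elsewhere. Gabra5 held 15.99% to 24.1% in every region and Gabra2 4.03% to 9.81%. These 4 are not all alpha subunits, so the shares are not shares of all alpha subunit RNA.

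On the same scale Gabrd had a mean of 42.0 ± 10.7 CPM per kilobase in Nac, above each of the 4 alpha subunits there, and of 0.441 ± 0.695 in VTA, below all of them. Gabrb2 exceeded Gabrb1 in every region, with means of 18.8, 19.1, 23.3 and 27.7 CPM per kilobase in AMY, Nac, PFC and VTA against 3.51, 3.09, 3.26 and 2.37. Union exon lengths count every annotated exon, so a gene read mostly from a short isoform is understated here.

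Within a region, several of the subunit genes varied together. Correlations were taken over libraries on log2 CPM after removal of group means, for 28 pairs of genes in 4 regions (112 relations). Of these, 71 had a Benjamini-Hochberg adjusted permutation p under 0.05, with 31 at an absolute Pearson r of 0.5 or more. The share among other pairs of genes was not computed, so these counts are not read as a trait of the subunit genes. In Nac, Gabra4 and Gabrd rose and fell together across the 112 libraries, with r of 0.857 and Spearman's rho of 0.851 (permutation p 1e-05 for both, the smallest that 100000 permutations can give; adjusted p 2.87e-05 and 2.61e-05). Without the 2 libraries farthest from the median of Gabra4, r was 0.850, and without the libraries that stand apart 0.836. Within number series 500, 1000, 1100 and 1200 it was 0.857, 0.888, 0.823 and 0.804.

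Gabra3 ran against both in Nac. Its r with Gabrd was -0.780 (rho -0.787) and with Gabra4 -0.727 (rho -0.723), each with permutation p 1e-05 and adjusted p 2.87e-05. Leaving out the 2 farthest libraries gave -0.784 and -0.732. Within the 4 number series the first ranged from -0.828 to -0.762 and the second from -0.785 to -0.635. In AMY and PFC the same pair, Gabra3 and Gabra4, had the opposite sign, with r of 0.777 (rho 0.772) and 0.762 (rho 0.772) at the same permutation p and adjusted p, and 0.766 and 0.780 without the 2 farthest. Within number series it stayed between 0.7101 and 0.846 in AMY and between 0.645 and 0.930 in PFC. The difference between regions in this r was not tested.

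Gabrg1 also ran against Gabrd in Nac (r -0.613, rho -0.626, permutation p 1e-05, -0.585 without the 2 farthest), less closely in series 500 (-0.353) and 1100 (-0.415) than in 1000 (-0.680) and 1200 (-0.803). In PFC the strongest pair was Gabrb1 with Gabrb2, at r 0.919 and rho 0.850 (permutation p 1e-05), with 0.897 without the 2 farthest, 0.865 without the libraries that stand apart and 0.872 to 0.976 within number series. Against Gabrd, Gabrb2 had r -0.506 (rho -0.391) in PFC, which fell to -0.204 when those libraries were left out and so rests largely on them. In VTA, Gabra2 and Gabrg1 had r 0.677 (rho 0.642) and Gabrb1 and Gabrg1 0.657 (rho 0.677), both with permutation p 1e-05. Without the 2 farthest they were 0.697 and 0.638, and within series 0.342 to 0.753 and 0.647 to 0.715. Genes of 1 library share its depth and its tissue mix, which enter all of these values.

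**Figure D1:**
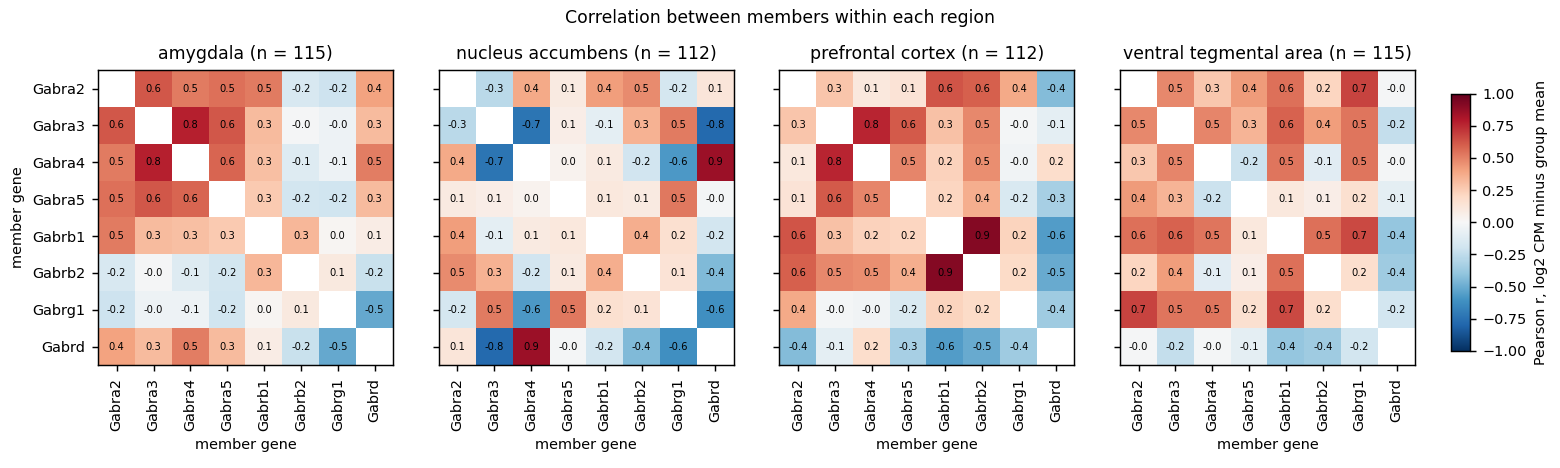
Pearson r between each pair of the 8 subunit genes over the libraries of a region, on log2 CPM after removal of group means, with a panel for each region and colour from negative to positive r. In Nac, Gabra3 is negative with Gabra4 (-0.727) and Gabrd (-0.780), while in AMY and PFC Gabra3 and Gabra4 are positive (0.777 and 0.762).

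Marker lists of the tissue moved with several of these genes. Over 8 genes, 13 marker lists and 4 regions, 416 relations were computed. Of these, 218 had an adjusted permutation p under 0.05 and 20 an absolute r of 0.6 or more. The relations named below are some of those 20. Each r is with the mean log2 CPM of a list's genes, after removal of group means. Summed CPM is given only as the level of a list. In Nac the sum of the 10 medium spiny neuron markers ran from 2337 through 5395 to 9955 CPM, and no marker of that list was at 0 in any library. Gabra4 followed the mean log2 CPM of these markers with r 0.936 (rho 0.932) and Gabrd with 0.927 (rho 0.923). Gabra3 ran against it with -0.767 (rho -0.758) and Gabrg1 with -0.666 (rho -0.655). All were at permutation p 1e-05 and adjusted p 4.57e-05. Without the 2 farthest libraries these were 0.926, 0.923, -0.744 and -0.641. Within number series they lay between 0.891 and 0.950, 0.767 and 0.953, -0.798 and -0.698, and -0.796 and -0.522. Gabrg1 in Nac also followed the medial amygdala and hypothalamus list (r 0.837, rho 0.836, permutation p 1e-05, 0.834 without the 2 farthest, 0.736 to 0.865 within series). The sum of that list ran from 29.6 to 146 CPM, and its genes Otp, Cyp19a1 and Sim1 were at 0 in some Nac libraries. What part of the variation of the subunit genes these mixes make up was not tested.

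In VTA, Gabra4 followed the dopamine neuron list with r 0.834 and rho 0.801 (permutation p 1e-05, 0.814 without the 2 farthest, 0.713 to 0.957 within series). The sum of that list ran from 945 to 7672 CPM. Gabra4 ran against the hippocampus list with r -0.723 (rho -0.723, permutation p 1e-05, -0.713 without the 2 farthest, -0.839 to -0.651 within series). In AMY, Gabrd followed cortical markers with r 0.655 (rho 0.680, 0.659 without the 2 farthest) and Gabra2 ran against medium spiny markers with -0.650 (rho -0.567, -0.601 without the 2 farthest), both at permutation p 1e-05. Within series the first was 0.399 to 0.790 and the second -0.688 to -0.449. In PFC, Gabra3 followed cortical markers (r 0.606, rho 0.579, permutation p 1e-05, 0.584 without the 2 farthest, 0.550 to 0.914 within series) and ran against medium spiny markers (r -0.644, rho -0.538, permutation p 1e-05, -0.567 without the 2 farthest, -0.766 to -0.319 within series). Gabrg1 followed the astrocyte list in PFC (r 0.611, rho 0.605) and in VTA (r 0.617, rho 0.538), with permutation p 1e-05 in both, 0.583 and 0.589 without the 2 farthest, and 0.503 to 0.687 and 0.595 to 0.747 within series.

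The genes most like each subunit gene were taken by Pearson r over all libraries after removal of group means, among 13461 genes. For Gabrb2 they were Faxc (0.934), Pdpr (0.909) and Tnks (0.905), and for Gabrb1 Fzd3 (0.839), Aff4 (0.823) and Rev3l (0.822). For Gabra3 they were the neuronal RNA-binding protein gene Elavl4 (0.801), Camk2d (0.785) and Gng2 (0.776), and for Gabra4 Erc2 (0.773), Cdk17 (0.773) and Anks1b (0.773). Gabrg1 was most like Igsf1 (0.773), Gprasp2 and Gabrq (0.745), itself a GABA-A subunit gene of the theta class. Gabra2 was most like 3 glutamate receptor genes, Grm5 (0.686), Grik2 (0.662) and Gria1 (0.657). Gabrd was most like Itpka (0.644), and Gabra5 like the synaptic vesicle gene Syn2 (0.564). No subunit described here was among the 3 genes most like another. Their ranks for each other ran from 137 (Gabra2 for Gabra5) to 13113 (Gabrb2 for Gabrd). Over the 64 group means, where region dominates, the gene most like Gabrd was Fbxl16 (0.996), and that most like Gabra4 was Dgat2 (0.991), followed by Bcl11b (0.990), a transcription factor of medium spiny neurons.

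Housing made no called difference in the 8 genes when all libraries of a region were fitted. By edgeR, 0 of 8 passed in each region, where 0% of all genes tested passed as well, in each of the 4 regions, and none of the 8 had an unadjusted p under 0.05. An unadjusted p under 0.05 was seen for 708 genes in AMY and 568 in VTA, 424 in Nac and 407 in PFC, and DESeq2 and limma voom also called 0 genes. Isolated minus group-housed log2 differences ran from -0.07 (Gabrg1) to 0.11 (Gabrb2) in AMY, from -0.03 to 0.04 in Nac and from -0.06 to 0.03 in PFC. In VTA, 7 of the 8 lay between -0.03 and 0.06, and Gabrd gave -0.34 (SE 0.22). Gabrb2 in AMY ran from 43.1 CPM through 113 to 180 CPM in group-housed mice (n = 58) and from 75.5 through 117 to 253 CPM in isolated mice (n = 57). Gabra2 in AMY ran from 37.5 through 49.0 to 93.8 CPM and from 35.0 through 49.8 to 89.6 CPM. Group-housed and isolated libraries overlapped almost throughout for both. The median log2 differences of the 8 were 0.02 in AMY and VTA, 0.01 in Nac and -0.02 in PFC, beside 0.00 over all genes in each region. Within number series 500 in Nac (10 libraries), Gabra2 (-0.42, adjusted p 0.0124) and Gabrb2 (-2.85, adjusted p 1.985e-06) were lower in isolated mice, where 47.5% of 17200 genes passed. The only isolated female there, at 1.89 CPM of Gabrb2, stands apart. Without the libraries that stand apart, 8 libraries were fitted and housing was compared in males only. In that fit, 0 of the 8 genes and 0% of all genes passed.

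The difference of the housing effect between females and males was tested itself. Again 0 of 8 passed, with 0% of all genes tested in each of the 4 regions, and none of the 8 reached an unadjusted p under 0.05 by edgeR. The lowest unadjusted p among the 8 was 0.0687, for Gabrg1 in AMY (0.14, SE 0.07). The numbers of all genes at an unadjusted p under 0.05 were 1292, 2064, 661 and 328 in the order AMY, Nac, PFC and VTA.

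**Figure D2:**
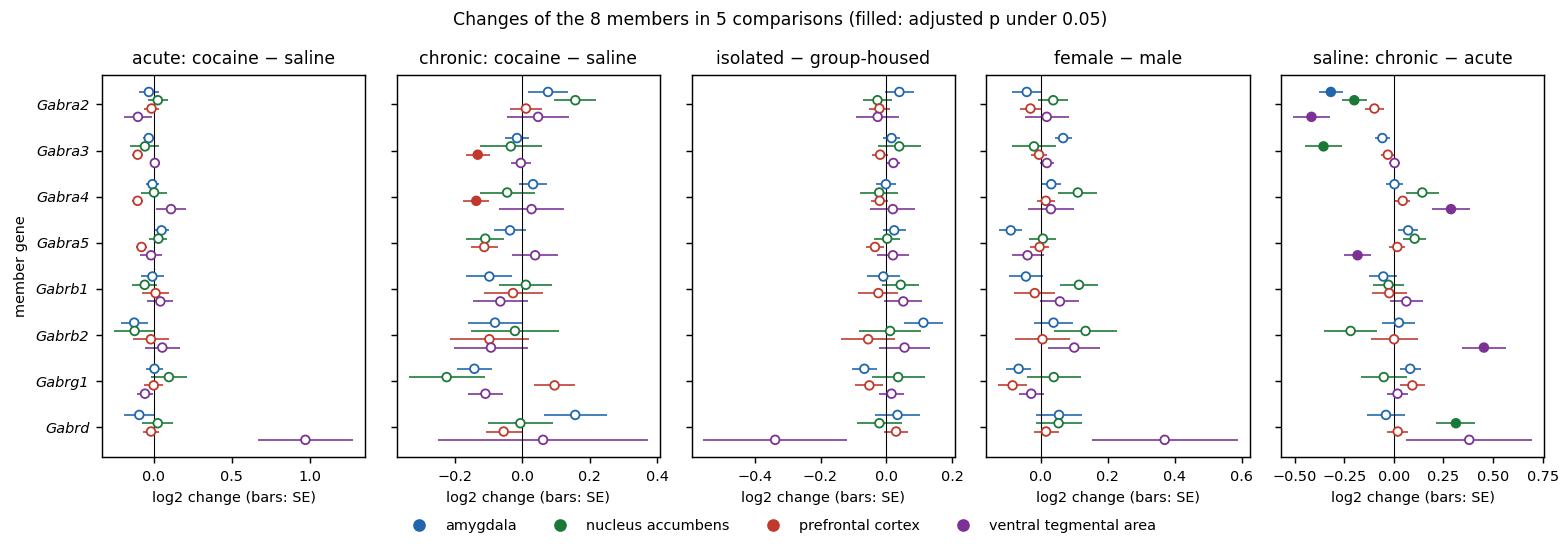
Fitted log2 change with its standard error for each of the 8 subunit genes in 5 comparisons and 4 regions; filled points passed an adjusted p of 0.05 by edgeR. Filled points appear for chronic cocaine in PFC (Gabra3 and Gabra4) and for schedule in saline in AMY, Nac and VTA, and none for housing, sex or acute cocaine.

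Sex made no called difference in the 8 genes either, with 0 of 8 in each region by edgeR. Of all genes tested 2.19% passed in AMY and 1.12% in PFC, against 0.272% in Nac and 0.332% in VTA. An unadjusted p under 0.05 was seen for 2 of the 8 in AMY, 1 in Nac and none in PFC and VTA. X-linked Gabra3 in AMY ran from 163 CPM through 189 to 264 CPM in females (n = 59) and from 148 through 181 to 245 CPM in males (n = 56), a log2 difference of 0.07 (SE 0.03, adjusted p 0.150). Gabra5 in AMY was 54.6 ± 6.59 CPM in females and 57.8 ± 7.82 in males, a difference of -0.09 (adjusted p 0.158). Gabrb1 in Nac gave 0.11 (adjusted p 0.528). Female and male libraries overlapped broadly in each case. Of the other GABA genes measured, none passed in AMY, Nac or VTA by edgeR.

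Acute cocaine against acute saline gave 0 of 8 in each region by edgeR, where 0% of genes passed in AMY and Nac, 0.0647% in PFC and 0.0467% in VTA. In AMY and Nac, 538 and 888 genes had an unadjusted p under 0.05, none of them among the 8, and DESeq2 called 0 and 2 genes. In PFC, 3 of the 8 and 1801 of all 17003 genes had an unadjusted p under 0.05, the 3 all lower with cocaine. They were Gabra3 at -0.10 (SE 0.03, adjusted p 0.330), Gabra4 at -0.10 (adjusted p 0.354) and Gabra5 at -0.08 (adjusted p 0.463). Gabrd in VTA gave 0.97 (SE 0.31, adjusted p 0.329). Its saline libraries ran from 0.443 CPM through 0.781 to 2.0 CPM (n = 28) and its cocaine libraries from 0.331 through 0.741 to 14.4 CPM (n = 29), so that the medians hardly differed and a few cocaine libraries were high. The log2 value was 0.39 without the libraries that stand apart, 0.37 by limma voom, 0.24 within series 1000 and 1.28 within series 1100. None of the 37 to 39 other GABA genes measured passed in any region.

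Chronic cocaine against chronic saline was the one cocaine comparison with calls among the 8. In PFC, Gabra3 and Gabra4 were lower, 2 of 8, where 7.09% of all genes passed. In AMY 0.0518% of genes passed, in Nac 0.22% and in VTA 0.0817%, and 0 of the 8 in each by edgeR, with 1, 2 and 1 of the 8 at an unadjusted p under 0.05. The median of the 8 in PFC was -0.08, beside 0.00 over all genes.

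Gabra3 in PFC ran from 184 CPM through 213 to 250 CPM with chronic saline (n = 26) and from 128 through 198 to 219 CPM with chronic cocaine (n = 28), a fitted log2 change of -0.13 (SE 0.04, adjusted p 0.0190). Gabra4 ran from 94.6 through 118 to 142 CPM and from 87.4 through 108 to 132 CPM, a change of -0.14 (SE 0.04, adjusted p 0.0209). The saline and cocaine libraries overlapped for both genes, and the lowest, median and highest cocaine values were each below those of saline. Gabra5, at 53.3 through 75.4 to 89.1 CPM and 49.3 through 69.8 to 86.3 CPM, gave -0.11 (SE 0.04) and did not pass (adjusted p 0.0615). For Gabra3 the mean was 211 ± 21.96 CPM with saline and 198 ± 12.5 with cocaine in group-housed females (n = 7 and 7), 206 ± 11.9 and 199 ± 12.9 in isolated females (n = 6 and 7), 211 ± 24.5 and 195 ± 17.2 in group-housed males (n = 6 and 7) and 222 ± 18.3 and 180 ± 33.7 in isolated males (n = 7 and 7). The cocaine mean was the lower in all 4 combinations of sex and housing, for Gabra4 and Gabra5 too.

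These PFC values depended on the number series. With the series as a term in the model, Gabra3 gave -0.06 (adjusted p 1.0) and Gabra4 -0.0023 (adjusted p 1.0). Within series 1200, the only series with both treatments, they gave -0.06 and -0.02 (adjusted p 1.0 for both). Gabra4 medians were 125 CPM for chronic saline in series 500, 117 for chronic saline in 1200, 112 for chronic cocaine in 1200 and 106 for chronic cocaine in 1000. Gabra3 medians were 224, 211, 198 and 198 CPM in the same order. Among chronic libraries series 500 holds only saline and series 1000 only cocaine, so between them treatment and series cannot be told apart. Without the libraries that stand apart, Gabra3 gave -0.10 (adjusted p 0.0572) and Gabra4 -0.12 (adjusted p 0.0435).

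The medians of some tissue marker lists also differed between chronic saline and chronic cocaine in PFC, with overlapping ranges. The medians of the cortical list were 6627 CPM with chronic saline and 6315 with chronic cocaine, those of the medium spiny list 294 and 318, and those of the oligodendrocyte list 2340 and 2942. The oligodendrocyte sum ran from 1370 to 6708 CPM with saline and from 1460 to 10140 with cocaine. The cortical sum ran from 4939 to 8458 CPM and from 4627 to 8546. The dopamine neuron list had medians of 26.6 and 36.9 CPM. The oligodendrocyte median was 1647 CPM in series 500, which holds only saline, and 2996 CPM in series 1200, which holds both treatments. Treatment and number series are therefore mixed in these sums too. The part of the tissue markers in the result was not tested. Of 38 other GABA genes measured in PFC, 2 were lower with chronic cocaine and none higher, where 7.09% of all genes passed. Among the 2 was Zdhhc3, a palmitoyl transferase of gamma subunits, at -0.07 (adjusted p 0.0275).

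**Figure D3:**
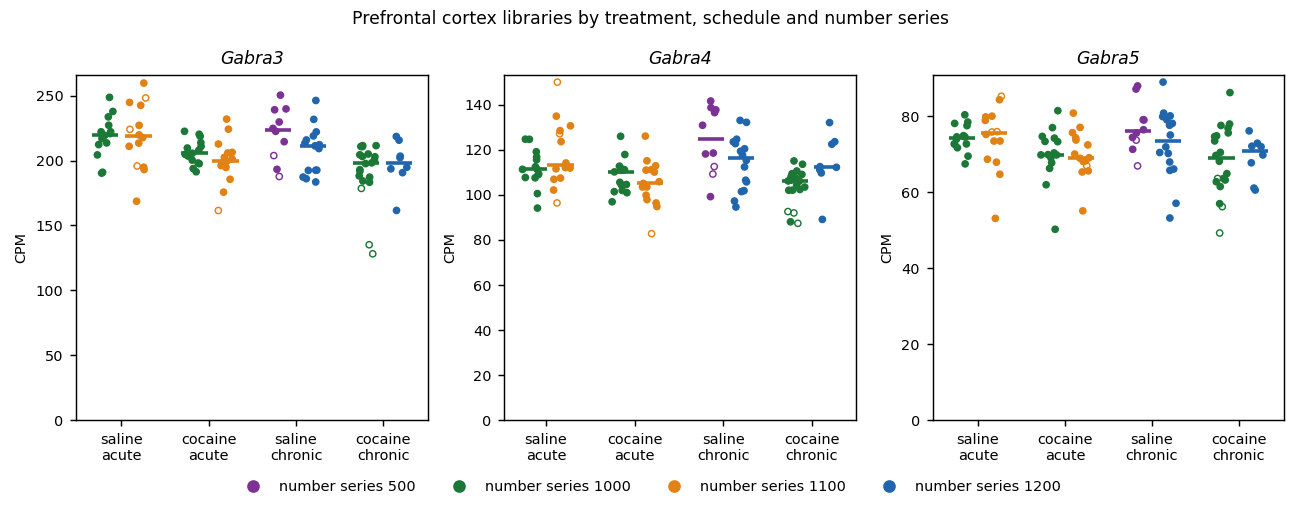
CPM of Gabra3, Gabra4 and Gabra5 in each PFC library by treatment, schedule and number series; bars are medians and open points are libraries that stand apart. Gabra4 medians go from 125 CPM (chronic saline, series 500) and 117 (chronic saline, 1200) to 112 (chronic cocaine, 1200) and 106 (chronic cocaine, 1000).

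The difference between the chronic and the acute cocaine effect, tested itself, gave 0 of 8 in each region by edgeR, with 0% of all genes tested in each. The PFC falls of Gabra3 and Gabra4 with chronic cocaine are therefore not shown to differ from the acute values. Gabrg1 in Nac (-0.32, SE 0.16, adjusted p 0.324) and Gabrd in VTA (-0.91, SE 0.43, adjusted p 1.0) had an unadjusted p under 0.05. Numbers of all genes at that level were 808, 2596, 927 and 599 in the order AMY, Nac, PFC and VTA. The cocaine effect in isolated minus group-housed mice gave 0 of 8 too, with 0% of genes in AMY, Nac and PFC and 0.0233% in VTA, and no gene of the 8 at an unadjusted p under 0.05. The lowest there was Gabra4 in VTA (0.24, SE 0.14, unadjusted p 0.0832).

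Schedule in saline, chronic minus acute, had the most calls among the 8, with 4 in VTA, 3 in Nac, 1 in AMY and none in PFC by edgeR. The background was also high, with 43.6% of genes in VTA, 23.3% in PFC, 20.9% in Nac and 20.4% in AMY. Whether any of these counts of 8 differs from its background was not tested, and they are not read as a result about the subunit genes. In PFC, 1 of the 8 had an unadjusted p under 0.05. The acute and chronic saline groups have no number series in common. With the series as a term, none of the 8 passed in Nac and VTA, and the share of all genes in that fit is not given here.

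Gabra2 was lower with the chronic schedule in 3 regions. In AMY it ran from 40.5 CPM through 53.1 to 93.8 CPM with acute saline (n = 27) and from 36.7 through 44.7 to 55.5 CPM with chronic saline (n = 30), a log2 difference of -0.32 (adjusted p 4.67e-05). In VTA it ran from 8.84 through 17.3 to 30.6 CPM (n = 28) and from 5.73 through 12.9 to 17.8 CPM (n = 29), a difference of -0.42 (adjusted p 0.000134). The high libraries were all acute in both regions, while the low ends overlapped. With the number series as a term the VTA value was -0.30 (adjusted p 0.320). In Nac the difference was -0.20 (adjusted p 0.0161), and it turned to 0.03 with that term. In AMY it was -0.44 (adjusted p 0.0447) with that term, a value that rests on the link through chronic cocaine. For chronic minus acute cocaine within series 1000 it was -0.28 (adjusted p 0.0257).

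In Nac, Gabra3 was lower and Gabrd higher with the chronic schedule. Gabra3 ran from 60.0 CPM through 92.4 to 131 CPM with acute saline (n = 27) and from 39.4 through 72.2 to 123 CPM with chronic saline (n = 28), a difference of -0.35 (adjusted p 0.0036). Gabrd ran from 51.0 through 110 to 154 CPM and from 83.7 through 132 to 229 CPM, a difference of 0.31 (adjusted p 0.0154). With the series as a term neither passed, at -0.29 (adjusted p 0.952) for Gabra3 and 0.23 (adjusted p 0.974) for Gabrd. Over libraries, Gabrd followed the medium spiny markers and Gabra3 ran against them. The sums of these markers had medians of 4939 CPM with acute and 6099 CPM with chronic saline, and ranges of 2337 to 6995 and 2924 to 9955. Their part in these differences was not tested.

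In VTA, Gabrb2 and Gabra4 were higher and Gabra5 lower. Gabrb2 ran from 114 CPM through 146 to 235 CPM with acute saline and from 11.0 through 205 to 337 CPM with chronic saline, a difference of 0.45 (adjusted p 0.000504). Gabra4 ran from 15.8 through 36.1 to 47.5 CPM and from 25.1 through 42.1 to 57.8 CPM (0.29, adjusted p 0.0121), and Gabra5 from 17.1 through 23.9 to 32.5 CPM and from 16.3 through 21.0 to 29.5 CPM (-0.18, adjusted p 0.0228). With the series as a term none of the 3 passed, at 0.47 (adjusted p 0.182) for Gabrb2, 0.27 (adjusted p 0.384) for Gabra4 and -0.08 (adjusted p 0.743) for Gabra5. For chronic minus acute cocaine within series 1000, Gabrb2 gave 0.29 (adjusted p 0.0070), while Gabra4 (0.21) and Gabra5 (-0.06) did not pass. Chronic libraries reached higher for Gabrb2 and Gabra4, and the ranges overlapped for all 3 genes. Beside them the dopamine neuron sum had medians of 2880 CPM with acute and 4796 CPM with chronic saline. The interneuron sum had 813 and 1399, the cortical sum 238 and 157, and the cerebellar sum 750 and 518. For these sums too, schedule and number series cannot be told apart in saline. The part of the tissue mix in the differences of the 3 genes was not tested.

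Among the other GABA genes, schedule in saline gave 1 of 38 in AMY (Shisa7, -0.19), 12 of 37 in Nac (6 higher and 6 lower), 2 of 38 in PFC (Trak1, -0.21, and Ubqln1, -0.07) and 20 of 39 in VTA (11 higher and 9 lower). Of all genes, 20.4%, 20.9%, 23.3% and 43.6% passed in the same order, and the counts were not tested against these shares. In VTA the lowest p values were those of Gabrq (-1.15) and Gabre (-1.11), subunits of the theta and epsilon class, which were lower, and of Gad1 (0.96) and Slc32a1 (0.69), which make GABA and load it into vesicles, which were higher. For these genes too, schedule and number series cannot be told apart in saline, and the part of the tissue mix was not tested.

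The number series differed within groups for a few of the 8 genes. In the F test over the series, 2 of 8 passed in PFC by edgeR, 1 in AMY, 1 in VTA and none in Nac. Of all genes 14.5% passed in PFC, 9.34% in AMY, 0.253% in VTA and 3.26% in Nac. In Nac 2 of the 8 had an unadjusted p under 0.05. In PFC the genes were Gabrd (adjusted p 0.0132), with medians of 52.8, 44.6, 46.5 and 44.6 CPM in series 500, 1000, 1100 and 1200, and Gabrg1 (adjusted p 0.0459), with medians of 23.8, 26.4, 25.2 and 27.97 CPM. Within the chronic saline groups, series 1200 minus 500 was -0.31 for Gabrd and 0.29 for Gabrg1 on the log2 scale. In AMY it was Gabrb1 (adjusted p 0.0115), with series 1100 minus 1000 at -0.23 (adjusted p 0.0343).

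In VTA it was Gabrd (adjusted p 0.0377), with series 1100 minus 1000 at 1.16 (SE 0.30). The medians were 1.06, 0.720, 0.967 and 0.726 CPM in series 500, 1000, 1100 and 1200, and the highest libraries 5.80, 2.08, 14.4 and 15.4 CPM. Most VTA libraries thus lay near 1 CPM or below, with a median of 18 reads, and single libraries were far higher. The highest of all, at 15.4 CPM, was a group-housed female with chronic cocaine in which Gabra6, a cerebellar granule cell subunit, stood at 29.5 CPM. The second, at 14.4 CPM, was a group-housed female with acute cocaine in which Gabra6 was at 0 and the cortical markers summed to 1859 CPM, against a median of 178 in VTA. The third, at 5.80 CPM, was a group-housed female with chronic saline in which Gabra6 was at 17.3 CPM. These 3 stand apart, and without the libraries that stand apart Gabrd was not called for number series in VTA. The next highest, at 5.46 and 4.35 CPM, were both in series 1100 and do not stand apart. What part single libraries had in the difference was not tested further. Over all VTA libraries Gabrd followed the cerebellar granule cell list with r 0.633 and rho 0.481 (permutation p 1e-05), 0.483 without the 2 farthest, 0.4664 without the libraries that stand apart and 0.374 to 0.900 within series.

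**Figure D4:**
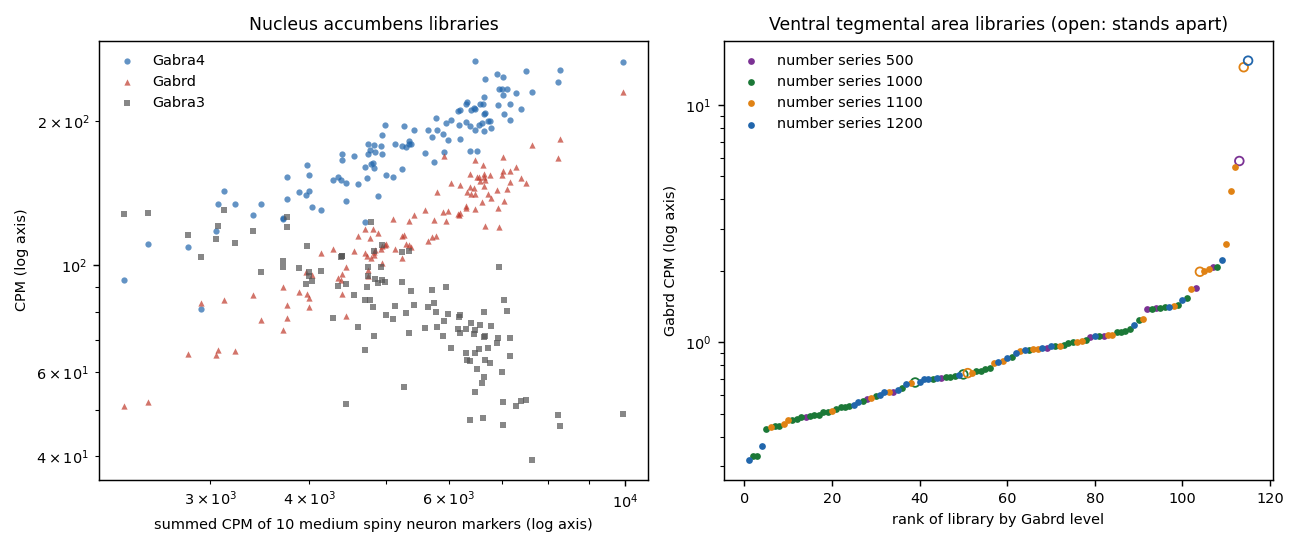
Left, CPM of Gabra4, Gabrd and Gabra3 in each Nac library against the summed CPM of 10 medium spiny neuron markers; right, VTA Gabrd in CPM (log axis) for all libraries in rank order, coloured by number series, with open points for libraries that stand apart. Gabra4 and Gabrd rise with the markers while Gabra3 falls (r 0.936, 0.927 and -0.767 with the mean log2 CPM of the markers, group means removed). The 3 highest VTA libraries, at 15.4, 14.4 and 5.80 CPM, stand apart.

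The beta subunits of PFC also differed in the libraries that stand apart. Gabrb2 ran from 29.1 CPM through 53.8 to 127 CPM in those 9 and from 80.0 through 156 to 206 CPM in the other 103. Gabrb1 ran from 17.8 through 24.3 to 40.0 CPM and from 25.8 through 47.1 to 60.0 CPM, and Gabrd from 50.1 through 56.6 to 70.7 CPM and from 31.9 through 45.1 to 66.7 CPM. The 9 lay low for both beta subunits and high for Gabrd, with overlap at the edges. The lowest Gabrb2 value of the series, 1.89 CPM, was in an isolated female with chronic saline in Nac, which stands apart and had the highest Gabrd of all libraries, 229 CPM.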

How the data were processed

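Polyadenylated RNA (300 ng) went into stranded TruSeq mRNA libraries, pooled by 21 and sequenced 3 times as 50-base single reads, per the labels' protocols. The values deposited by the authors are raw counts of reads per gene for 43346 genes. STAR, featureCounts and limma were used with build GRCm38/mm10, per the submitters' processing notes. Their versions, annotation and strand setting: not given in the sources used here. Of these genes, 42462 were matched to a symbol by identifier; the others hold 0.11% of counts and stayed in library sizes. Coordinates and exon lengths come from GENCODE M21.

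Each region was fitted in R 4.3.3 with edgeR 4.0.16 (filterByExpr, TMM, glmQLFit with robust estimation, glmQLFTest, two-sided), with its 16 groups as cell means. By region, AMY had 17391 genes tested, Nac 17266, PFC 17003 and VTA 17144, with Benjamini-Hochberg adjustment at 0.05 over them. Region pairs came from 1 fit over all libraries (18627 genes), and the number series from a fit with the series as a term. Contrasts average the groups that differ only in the factor named. Each adjusted p is edgeR's unless a permutation test is named. Alternatives were DESeq2 1.42.0, limma voom (limma 3.58.1), upper-quartile factors, no filter, the number series as a term or held fixed, and leaving out libraries. A library stood apart with a robust z over 5 on principal components 1 to 4 (3000 variable genes), over 8 on a marker list of another tissue, or with opposite-sex transcripts of at least 5%. The edgeR script was tested on simulated data. Title numbers recur across regions but are not said to be animals: of 129 numbers, 86 are in all 4 regions, and libraries with the same number had a consensus correlation of 0.033.

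Members, gene lists and tests were chosen with earlier results of these data known. All 8 subunit genes are named; other GABA genes are named only past the threshold, up to 4 for each comparison by lowest p. Some of those genes are not reported here.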

Additional observations from a re-analysis of the deposited data

Results flagged for a closer look

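Single libraries lay far from the rest of their group for Gabrb2 and, in VTA, for Gabrd. Over the 8 genes and 64 groups, 45 of 512 group values (8.79%) had their highest or lowest library past Dixon's critical value. Chance gives about 1 in 20 where values are normally distributed, which CPM need not be. The rate over all genes was not computed, so this share is not read as a result about the subunit genes. Those of Gabrb2 and of Gabrd in VTA are given here, a choice made after their values were seen, and what sets them apart was not tested.

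For Gabrb2 in AMY, an isolated female with chronic saline stood at 253 CPM (others 75.5 to 131) and a group-housed male with acute saline at 157 (others 102 to 121). In Nac an isolated male with acute cocaine was at 37.5 (others 113 to 170). In PFC a group-housed female with chronic saline was at 29.1 (others 130 to 201), an isolated female with acute cocaine at 34.1 (others 135 to 204), a group-housed male with acute cocaine at 176 (others 126 to 149), a group-housed male with acute saline at 53.7 (others 146 to 197) and a group-housed male with chronic saline at 80.0 (others 164 to 197). In VTA an isolated female with chronic cocaine was at 101 (others 178 to 232), a group-housed male with acute cocaine at 42.9 (others 141 to 175) and a group-housed male with acute saline at 179 (others 121 to 146). Low libraries of Gabrb2 were the more frequent among these, 7 of 11.

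For Gabrd in VTA all 6 were high. With levels so near the floor of the scale, a library far below the others was hardly possible. Group-housed females held 14.4 CPM with acute cocaine (others 0.333 to 0.670), 15.4 with chronic cocaine (others 0.484 to 1.10) and 5.80 with chronic saline (others 0.558 to 1.41). Group-housed males held 4.35 with acute cocaine (others 0.331 to 2.04) and 2.0 with acute saline (others 0.471 to 1.0), and an isolated male with acute cocaine held 5.46 (others 0.476 to 2.61). No difference of an effect between groups was called for any of the 8 genes.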

How the results depend on the processing

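Counts of called genes among the 8 moved in these cases. For chronic cocaine in PFC, 2 became 0 with the number series as a term, 0 within series 1200 and 1 without the libraries that stand apart. For schedule in saline, the 3 in Nac and the 4 in VTA became 0 with the series as a term, and the 0 in PFC became 1 without the libraries that stand apart. Series 1000 holds no chronic saline, and chronic minus acute cocaine within it called 2 in AMY (Gabra2 and Gabrb1, lower), 1 in Nac (Gabrg1, lower) and 1 in VTA (Gabrb2, higher). The shares of all genes that passed within series 1000, within series 1200 and with the series as a term are not given here. These counts are therefore not read as a result about the subunit genes. Within series 500 in Nac (10 libraries), 2 genes were called for housing (Gabra2 and Gabrb2, lower in isolated mice, where 47.5% of all genes passed) and 3 for sex (Gabra2 and Gabrb2 lower and Gabrd higher in females, where 47.0% passed). Leaving out the libraries that stand apart, an alternative chosen after seeing the data, removed the only isolated female. Housing was then compared in males only and sex in group-housed mice only (8 libraries in 3 groups), and both counts were 0. In the region pairs, without the libraries that stand apart, Gabrb1 was called for Nac minus PFC and no longer for AMY minus PFC, which left the counts within 1.5 times. For number series, the 2 in PFC became 1 without the filter, and the 1 in VTA became 0 by limma voom, by omitting the filter and by omitting the libraries that stand apart. The causes were not tested. Gabra2 for schedule in Nac turned from -0.20 to 0.034 with the series as a term. Gabrb2 for AMY minus Nac, not called in any setting, turned from -0.03 to 0.0054 without the filter, 0.0057 with upper-quartile factors, 0.0078 without the libraries that stand apart, 0.021 by limma voom and 0.021 with the replicate block. The title number as replicate block in limma voom changed no call in the region pairs. Within a region, no paired analysis was possible because each title number occurs once. Leaving out each replicate of the smallest group (isolated males with acute cocaine in AMY) left 0 of 8 called for acute and chronic cocaine, housing and sex. At a median depth of 21.71 M, Gabrd in VTA rests on a median of 18 reads, which limits its precision.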
